A study of Mus musculus with 8 samples.

Results

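The 29 genes described here encode proteins that make, sense, take up and export cholesterol, and all 29 were found by symbol among the 43432 gene IDs of the count table. They fall into 4 roles, with 5 genes for sensors and factors of the SREBP pathway, 8 for mevalonate and isoprenoid enzymes, 11 for squalene and sterol enzymes and 5 for sterol transport, control of uptake and efflux. RNA was measured in mouse lenses at embryonic day 14.5, in 4 control libraries and 4 libraries of the genotype Mettl3 CKO, with replicates a to d of each. Mettl3 encodes the catalytic subunit of the enzyme that writes m6A on mRNA, and CKO stands for its conditional knockout. The labels give no Cre driver, no strain, no genotype of the controls beyond the word control, and no number of lenses or animals behind a library. Replicates a and b (set 1) and c and d (set 2) form separate blocks of sample records with different sequencing depth, and the model therefore held a term for the set, but no label calls it a batch.

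Cholesterol is made from acetyl-CoA in the endoplasmic reticulum and cytosol through mevalonate, farnesyl diphosphate, squalene and lanosterol. When sterols are scarce, the protein SCAP escorts SREBP factors to the Golgi, where they are cleaved into transcription factors for the genes of the pathway, and INSIG proteins hold SCAP back when sterols are plentiful. Liver X receptors (LXR) sense oxysterols and drive the efflux transporter genes. Lens fiber membranes are exceptionally rich in cholesterol, and inherited defects of lanosterol synthase cause cataract in humans and rats.

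The libraries held between 19110170 and 56098211 counts, and the lowest count of any of the 29 genes in a library was 140 (Ebp in CKO a). Mettl3 lay between 21.4 and 28.4 CPM (counts scaled to library size by TMM) in controls and between 8.11 and 15.9 CPM in CKO lenses (log2 fold change -1.02, SE 0.15, adjusted p = 0.00259), which accords with the labels. The 12 lens markers, among them the crystallin gene Cryaa, were detected in every library, and their summed level was 158916 to 195869 CPM in controls and 124343 to 172735 CPM in CKO lenses. Retinal markers were highest in CKO c (236 CPM summed over 10 genes, against 42.5 to 68.2 CPM in the other CKO libraries) and, among controls, in control a (102 CPM, against 21.7 to 28.7 CPM), and none of the 10 passed the test of genotype. Over all 16241 genes tested, 10.5% were called changed at an adjusted p under 0.05 (edgeR quasi-likelihood test), 1055 higher and 651 lower. In these bulk lenses, fewer cells of a type and less RNA per cell cannot be told apart.

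Several genes of cholesterol synthesis were lower in CKO lenses, and none was higher. All 29 genes passed the filter on low counts, 7 fell, none rose and 22 did not pass the test. The genes that fell were Hmgcs1, Idi1 and Fdps of the mevalonate branch, Sqle, Lss and Cyp51 of the sterol branch, and the sensor gene Insig1, and their fitted levels fell by 26.2% (Fdps) up to 40.8% (Idi1). Over all genes tested 4.01% were called lower, and 5.49% of the 10812 genes whose mean reached 5 CPM in either genotype, as it did for all 29. At an unadjusted p under 0.05, 13 of the 29 were lower and none higher, against 26.5% of all genes tested in either direction and 12.6% lower. The fitted log2 fold change was below 0 for 25 of the 29, with a median of -0.25, whereas 53.1% of all genes tested lay below 0, with a median of -0.03. Of the 12 lens markers, 10 had fitted values below 0, and their median of -0.26 was of like size. Only 1 was called, the fiber membrane gene Lim2 (log2 fold change -0.57, adjusted p = 0.0307). The largest fitted value of the 12 lay above 0, Foxe3 at 0.61 (adjusted p = 0.0517), with every CKO library above every control. Pax6 also lay above 0 (0.13, adjusted p = 0.537). The part of the lens markers in the values of the 29 genes was not tested. Every CKO library was below every control library for 8 of the 29 genes, against 7.38% of all genes tested, and for none was every CKO library higher. Exons of 5 of the 7 genes that fell, all but Sqle and Insig1, overlap another annotated gene, and the strand setting of the counting is not known. Fdps shares 1124 exon bases with Gm43738 on the same strand, where no strand setting parts the reads. The plot of fitted changes gives all 29 by role.

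**Figure D1:**
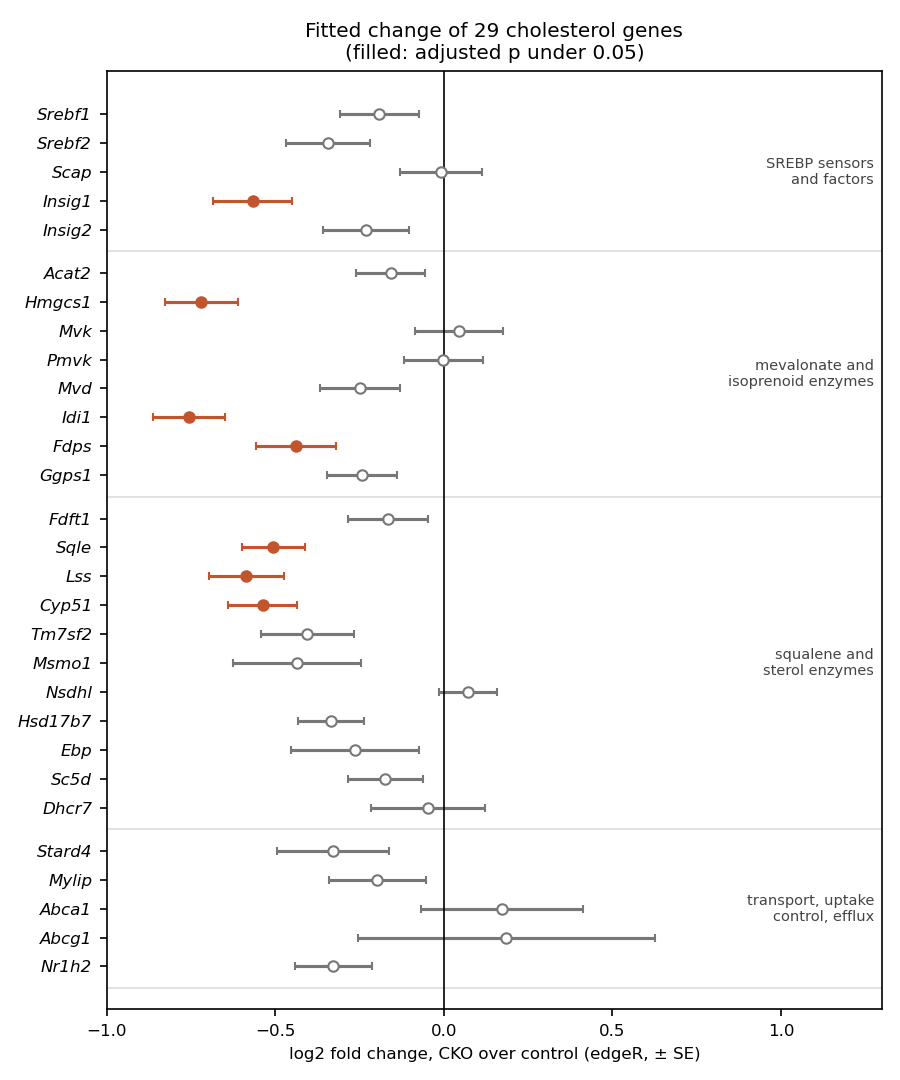
Fitted log2 fold change of each of the 29 genes (x axis, CKO over control) with its standard error as a bar, grouped by role. Filled red points are the 7 genes with an adjusted p under 0.05, all left of 0, from Idi1 at -0.76 to Fdps at -0.44.

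The transcripts of the 19 synthesis enzymes averaged a sum of 1319 CPM ± 103 (SD, n = 4) in the control lenses. The same sum was 985 CPM ± 34.0 (SD, n = 4) after the knockout. The sums ran from 1214 to 1419 CPM in controls and from 964 to 1035 CPM in CKO lenses, so the genotypes did not overlap. Of the 19, 6 fell and 17 had fitted values below 0 (median -0.26). Over all genes tested, 4.01% fell and 53.1% lay below 0. A sum of CPM weights each gene by its abundance, so the gap between the sums is not separate from the 6 calls. Hmgcs1, the most abundant of the 19, went from a mean of 266 to 161 CPM. Whether the 13 enzymes that did not pass would keep the genotypes apart when summed alone was not tested.

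Among the mevalonate and isoprenoid enzymes, 3 of 8 fell and the median was -0.25. Over all genes tested, 4.01% fell and the median was -0.03. Hmgcs1 (ENSMUSG00000093930, mm10 chr13:119690379-119708260, plus strand) encodes the cytosolic HMG-CoA synthase, which makes the precursor of mevalonate. It stood at 249, 235, 301 and 277 CPM in control a to d and at 153, 176, 151 and 163 CPM in CKO a to d. The lowest control lay well above the highest CKO library, and the log2 fold change was -0.72 (SE 0.11, adjusted p = 0.00309). Idi1 (ENSMUSG00000058258, chr13:8885501-8892451, plus strand), the isomerase that yields dimethylallyl diphosphate, had 45.8, 53.6, 70.1 and 72.1 CPM in controls and 32.0, 34.7, 38.5 and 36.0 CPM in CKO lenses. Its controls were lower in set 1 than in set 2 while the CKO libraries lay close together, and the log2 fold change was -0.76 (SE 0.11, adjusted p = 0.00241). Fdps (ENSMUSG00000059743, chr3:89093588-89101959, minus strand) encodes farnesyl diphosphate synthase, whose product feeds both sterols and protein prenylation. It had 105, 98.5, 122 and 109.8 CPM in controls and 88.5, 91.1, 68.0 and 75.2 CPM in CKO lenses, with no overlap and the smallest effect of the 7 genes in set 1 (-0.20). Its log2 fold change was -0.44 (SE 0.12, adjusted p = 0.0391), and this call held only when control c or CKO b was the 1 left out (adjusted p from 0.0331 to 0.126 over the 8 fits with 1 library fewer). Those fits called between 3.15% and 16.1% of all genes, against 10.5% with all 8 libraries.

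The other 5 enzymes of this branch did not pass. Ggps1, which lengthens farnesyl to geranylgeranyl diphosphate, had a log2 fold change of -0.24 (adjusted p = 0.165) and the decarboxylase gene Mvd of -0.25 (adjusted p = 0.208). Acat2, the thiolase of the entry step, had -0.16 (adjusted p = 0.364), and its value is uncertain, since it has a close copy, Acat3, and how reads that match both were counted is not known. The kinase genes Mvk (0.05, 95% interval -0.24 to 0.33) and Pmvk (95% interval -0.26 to 0.26) act between Hmgcs1 and Idi1 in the pathway. Their intervals lie above the fitted values of Hmgcs1 and Idi1, although the difference between these genes was not tested.

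Of the 11 squalene and sterol enzymes, 3 fell and 10 had fitted values below 0 (median -0.33). The shares over all genes tested were 4.01% and 53.1%. Sqle (ENSMUSG00000022351, chr15:59315077-59331192, plus strand) encodes squalene epoxidase, a rate-limiting step. Its levels were 97.9, 113, 110.0 and 119.9 CPM in controls and 75.3, 80.3, 79.0 and 75.6 CPM in CKO lenses. The CKO libraries spanned a narrow range below all controls, and the log2 fold change was -0.51 (SE 0.09, adjusted p = 0.00838). Lss (ENSMUSG00000033105, chr10:76531588-76557138, plus strand), the gene for lanosterol synthase, had 88.8, 98.0, 73.3 and 94.6 CPM in controls and 54.0, 66.3, 59.3 and 56.3 CPM in CKO lenses. Control c was the lowest control and CKO b the highest CKO library, with no overlap (log2 fold change -0.59, SE 0.11, adjusted p = 0.00992). Cyp51 (ENSMUSG00000001467, chr5:4081145-4104746, minus strand) encodes the lanosterol demethylase. It had 146, 170.0, 192 and 179 CPM in controls and 126, 116, 116 and 114 CPM in CKO lenses, again without overlap (log2 fold change -0.54, SE 0.10, adjusted p = 0.00991). With 1 library left out, the Lss call ended without control d (adjusted p = 0.0541, with 0.00112 to 0.0541 over the 8 fits). The Cyp51 call ended without CKO d (adjusted p = 0.0505, with 0.00513 to 0.0505). The fit without control d called 3.15% of all genes and that without CKO d 4.10%, against 10.5% with all 8 libraries.

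The other 8 enzymes of this branch did not pass. Hsd17b7, a keto reductase of the demethylation complex, was nearest to the threshold, with 27.4 to 30.4 CPM in controls and 19.4 to 26.6 CPM in CKO lenses. Its genotypes did not overlap (log2 fold change -0.33, adjusted p = 0.0517), and DESeq2 called it (adjusted p = 0.0457, with edgeR 0.034 to 0.18 over the 8 fits). The reductase gene Tm7sf2 had a log2 fold change of -0.40 (adjusted p = 0.0897) and passed without control c (adjusted p = 0.0127, with 0.0127 to 0.303 over the 8 fits). Without control c, 16.1% of all genes were called, against 10.5% with all 8 libraries. Msmo1, the methylsterol oxidase gene, had -0.44 (SE 0.19, adjusted p = 0.183). Its controls stood at 47.8, 43.5, 74.1 and 63.9 CPM and its CKO libraries at 49.1, 46.8, 39.2 and 33.3 CPM. The genotypes were mixed in set 1 and far apart in set 2. Msmo1 passed in set 2 alone and without the filter on low counts, where 4.99% and 8.93% of all genes were called. Ebp, the sterol isomerase gene (-0.26, adjusted p = 0.414), the squalene synthase gene Fdft1 (-0.17, adjusted p = 0.41) and the desaturase gene Sc5d (-0.17, adjusted p = 0.361) gave smaller fitted values. Nsdhl, a dehydrogenase of the demethylation complex, gave 0.07 (95% interval -0.12 to 0.26). Dhcr7, the reductase of the last step, had 41.7, 37.0, 30.0 and 36.9 CPM in controls and 24.6, 39.0, 42.6 and 34.6 CPM in CKO lenses, overlapping throughout (log2 fold change -0.05, SE 0.17, adjusted p = 0.897).

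**Figure D2:**
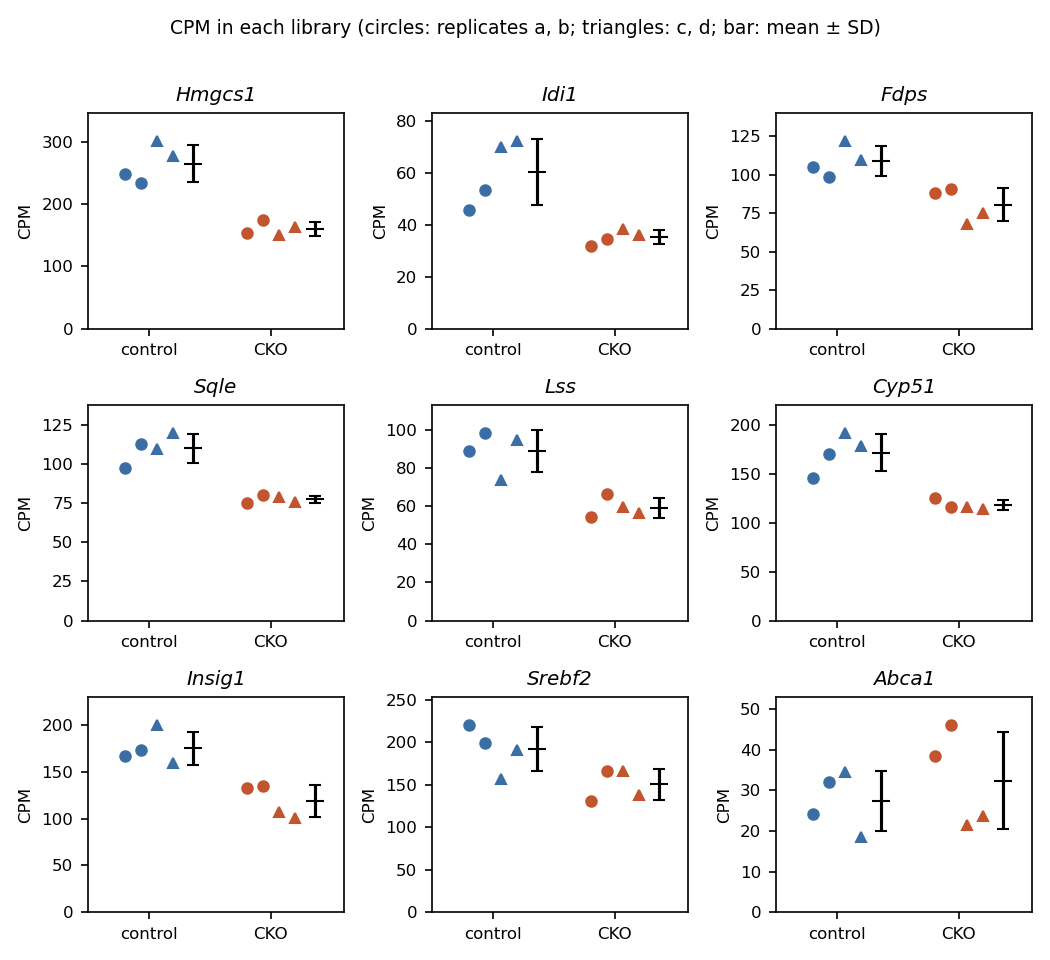
CPM (y axis, from 0) in each library for the 7 genes that fell and for Srebf2 and Abca1, with controls in blue and CKO in red. Circles are replicates a and b, triangles replicates c and d, and black bars the mean ± SD of 4 libraries. The genotypes are apart for the 7 genes (Hmgcs1 from 266 to 161 CPM on average) and overlap for Srebf2 and Abca1.

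Upstream of the enzymes, Insig1 fell and the other sensors and factors did not pass. Insig1 (ENSMUSG00000045294, chr5:28071363-28078662, plus strand) encodes a protein that retains SCAP and is itself a target of SREBP factors. It had 167, 173, 199 and 159 CPM in controls and 132, 135, 107 and 101 CPM in CKO lenses. All CKO libraries lay below all controls, those of set 2 furthest (log2 fold change -0.57, SE 0.12, adjusted p = 0.0141). The call ended without CKO d (adjusted p = 0.0631, with 0.00544 to 0.0631 over the 8 fits), where 4.10% of all genes were called. Srebf2, the gene for the SREBP factor most tied to sterol synthesis, had 220.2, 199, 157 and 191 CPM in controls and 131, 166, 166 and 138 CPM in CKO lenses. Control c lay below CKO b and CKO c, and the log2 fold change was -0.34 (SE 0.13, adjusted p = 0.107). Without control c it passed (log2 fold change -0.43, adjusted p = 0.0214, with 0.0214 to 0.267 over the 8 fits). That fit called 16.1% of all genes, against 10.5% with all 8 libraries. Srebf2 also passed in set 1 alone (log2 fold change -0.51), where 8.63% of all genes were called. Srebf1, whose product acts more on fatty acid genes, had 103, 92.7, 74.0 and 90.2 CPM in controls and 68.3, 82.6, 80.7 and 82.5 CPM in CKO lenses. Here too control c was the only control within the CKO range (log2 fold change -0.19, SE 0.12, adjusted p = 0.335). Insig2, the relative of Insig1 (-0.23, adjusted p = 0.28), and Scap (-0.01, 95% interval -0.27 to 0.26) did not pass.

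SREBP factors bind sterol regulatory elements near the start of their target genes, often beside a CCAAT box bound by NF-Y. The stretches upstream of 3 genes that fell are shown because a match to such a motif lies in them. They are RefSeq promoter sequence (GRCm38.p6), 5′ to 3′ on the strand of the gene, cut to the bases before the gene starts in both RefSeq and GENCODE. Capitals mark TCACNCCAC (the SREBP motif) and ATTGG or its reverse complement CCAAT (the NF-Y box). They cover chr13:119690101-119690350 on the plus strand, chr5:28071162-28071362 on the plus strand and chr10:76531355-76531587 on the plus strand.
Hmgcs1: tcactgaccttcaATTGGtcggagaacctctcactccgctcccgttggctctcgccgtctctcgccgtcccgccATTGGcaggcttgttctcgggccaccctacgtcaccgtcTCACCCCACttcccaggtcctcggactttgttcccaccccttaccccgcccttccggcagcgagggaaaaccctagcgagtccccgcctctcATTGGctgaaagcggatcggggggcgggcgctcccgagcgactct
Insig1: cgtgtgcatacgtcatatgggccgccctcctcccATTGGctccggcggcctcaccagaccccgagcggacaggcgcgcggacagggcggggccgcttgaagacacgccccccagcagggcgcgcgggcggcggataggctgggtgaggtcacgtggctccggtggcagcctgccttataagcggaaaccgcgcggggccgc
Lss: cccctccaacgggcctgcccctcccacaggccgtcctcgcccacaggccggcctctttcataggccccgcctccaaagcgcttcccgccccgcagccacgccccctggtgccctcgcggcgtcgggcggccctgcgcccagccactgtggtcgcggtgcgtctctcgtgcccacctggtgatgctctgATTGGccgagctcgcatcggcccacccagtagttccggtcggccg

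Of the 29 genes, 24 had a promoter window of 300 bases, which runs from 250 before to 50 after the start site. TCACNCCAC, searched on both strands, was found for 1 of the 5 genes that fell and had a window (Hmgcs1, first base at -137 from the start site). It was found for 0 of 19 genes that did not pass and in 1.24% of all 32851 windows. A gene counted if any window listed for it held the motif, whereas the share of all is over windows. The NF-Y box was found for 5 of 5 genes that fell, 15 of 19 that did not pass and 37.4% of all windows. CACGTG, the E-box that SREBP factors can also bind, was found for 1 of 5, 5 of 19 and 7.15%. The NF-Y boxes of Cyp51 and Idi1 lie in bases not printed here. These matches describe letters in the windows, and binding was not measured.

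**Figure D3:**
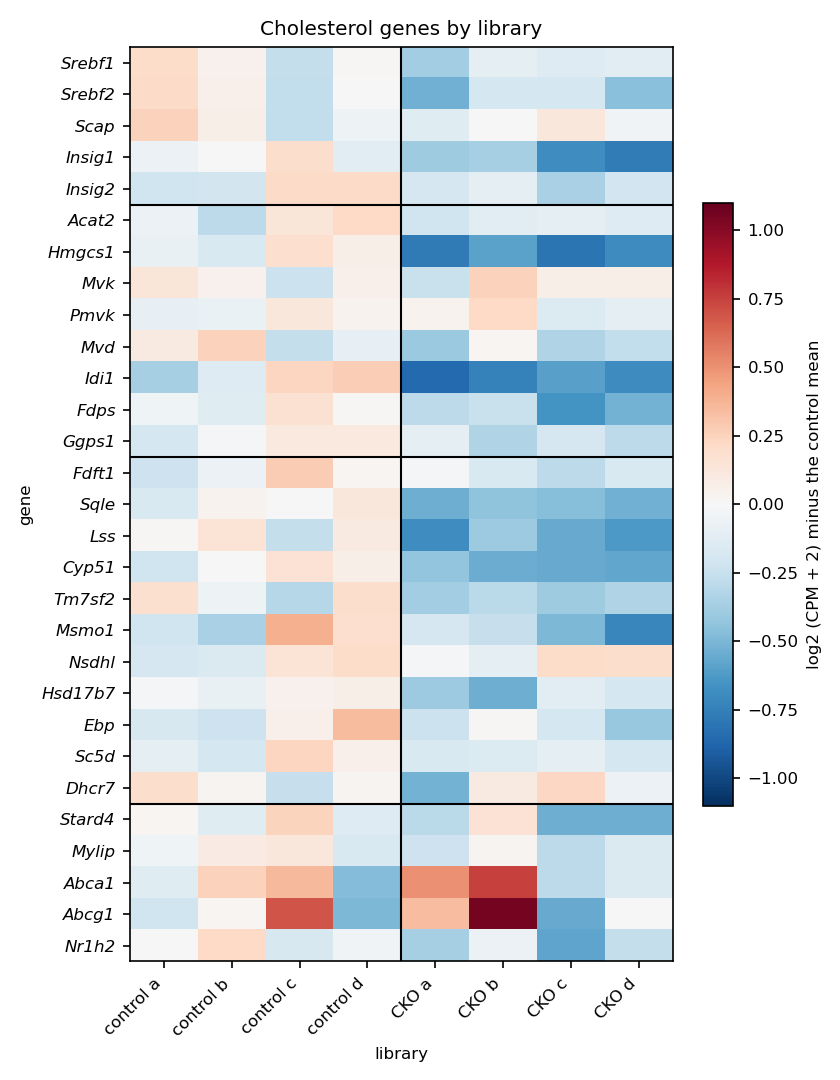
Level of the 29 genes (rows, by role) in each library (columns) as log2 (CPM + 2) minus the mean of the 4 controls, with blue below and red above that mean. Hmgcs1, Idi1, Sqle, Lss and Cyp51 are blue in all 4 CKO libraries. So are other genes, among them Insig1 and Fdps and, of those that did not pass, Srebf1, Srebf2 and Msmo1. Abca1 and Abcg1 are at their reddest in CKO a, CKO b and control c.

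None of the 5 genes for transport, uptake control and efflux passed, and their median was -0.20. Nr1h2, the gene for LXR beta, had 46.6, 54.9, 41.3 and 45.6 CPM in controls and 35.9, 44.7, 30.7 and 38.7 CPM in CKO lenses (log2 fold change -0.33, SE 0.11, adjusted p = 0.0962). Its genotypes overlapped only through CKO b and control c. Stard4, a cytosolic sterol carrier gene, had -0.33 (adjusted p = 0.241), and Mylip, which encodes a ubiquitin ligase that degrades lipoprotein receptors, had 10.02, 11.2, 11.6 and 9.08 CPM in controls and 8.61, 10.7, 8.22 and 9.11 CPM in CKO lenses (-0.20, adjusted p = 0.422). Abca1, the transporter that loads cholesterol onto lipid-poor apolipoproteins, had 24.1, 32.1, 34.6 and 18.5 CPM in controls and 38.5, 46.0, 21.4 and 23.6 CPM in CKO lenses. Abcg1, which exports cholesterol to lipoprotein particles, had 12.0, 14.5, 24.3 and 9.59 CPM in controls and 18.6, 31.7, 9.10 and 14.2 CPM in CKO lenses. Both were highest in CKO b, and their fitted values were 0.17 (SE 0.24, adjusted p = 0.703) and 0.19 (SE 0.44, adjusted p = 0.836). The effect on Abca1 was 0.57 in set 1 and -0.19 in set 2, and that on Abcg1 0.91 and -0.49. Abca1 passed as higher without control c (log2 fold change 0.46, adjusted p = 0.028, with 0.028 to 0.99 over the 8 fits). The fit without control c called 16.1% of all genes, against 10.5% with all 8 libraries.

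Vessel cells and macrophages also express these efflux transporters. The 10 markers of endothelium and pericytes summed to 861, 664 and 564 CPM in CKO b, control c and CKO a and to between 276 and 418 CPM in the other libraries, the same 3 libraries in which Abcg1 was highest. The 10 macrophage markers summed to 122 and 127 CPM in CKO a and CKO b, to 61.0 and 54.0 CPM in CKO c and CKO d and to 38.1 to 54.2 CPM in controls. Of these markers 4 rose, among them the complement gene C1qc (log2 fold change 1.12, adjusted p = 0.00968). Over all 16241 genes tested, 1055 rose. The part of these cells in the values of Abca1 and Abcg1 was not tested.

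**Figure D4:**
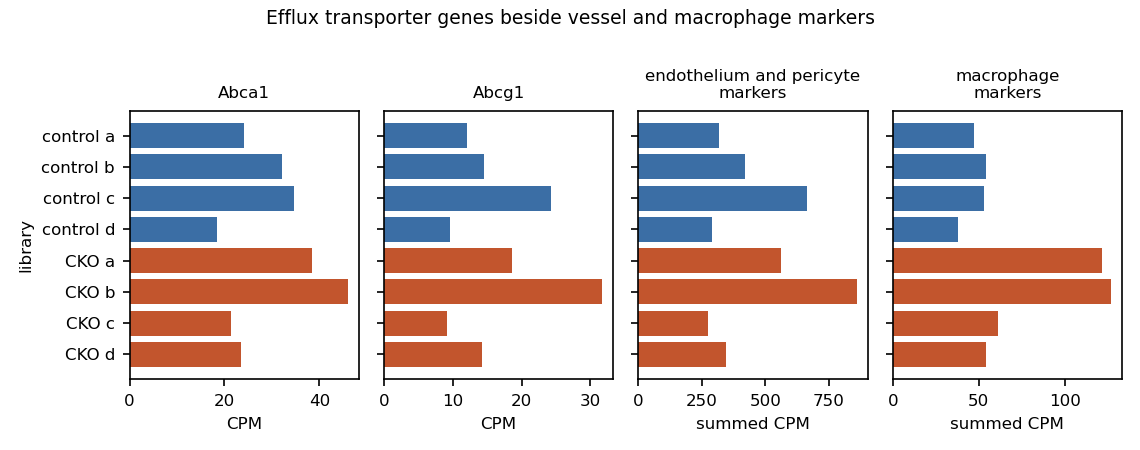
CPM of Abca1 and Abcg1 and summed CPM of 10 endothelium and pericyte markers and of 10 macrophage markers in each library (bars from 0, controls in blue, CKO in red). CKO b has the longest bar in all 4 panels, at 46.0, 31.7, 861 and 127 CPM.

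The 7 genes that fell had fitted values below 0 in each set, when the sets were fitted alone, and 2 of them, Hmgcs1 and Idi1, passed in both. Set 1 alone did not give the calls for Insig1 (adjusted p = 0.0541), Fdps (0.285) and Cyp51 (0.0509), and set 2 alone not those for Sqle (0.0672) and Lss (0.12), each with fewer libraries. Beyond the 7, set 1 alone called Srebf2 lower (-0.51) and Abca1 higher (0.57), and set 2 alone called Msmo1 lower (-0.89). Over all genes, set 1 alone called 8.63% and set 2 alone 4.99%, against 10.5% in the main fit. In set 1 the 7 genes ran from -0.20 (Fdps) to -0.65 (Lss), and in set 2 from -0.50 (Lss) to -0.89 (Idi1). Over all 29 genes, set 1 gave a median of -0.20 and set 2 of -0.33, and 17 lay below 0 in both, against 29.2% of all genes tested. The test of whether the genotype effect differs between the sets called 0 of the 29 genes and 0% of all genes (edgeR, adjusted p under 0.05). At an unadjusted p under 0.05, 9 of the 29 genes and 16.4% of all genes differed. Among the 29, Msmo1 came nearest to a call (edgeR adjusted p = 0.172), with an effect of 0.05 for set 1 against -0.89 for set 2. Insig2 (0.05 and -0.48) and Fdps (-0.20 and -0.65) followed, with adjusted p of 0.177 and 0.191.

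**Figure D5:**
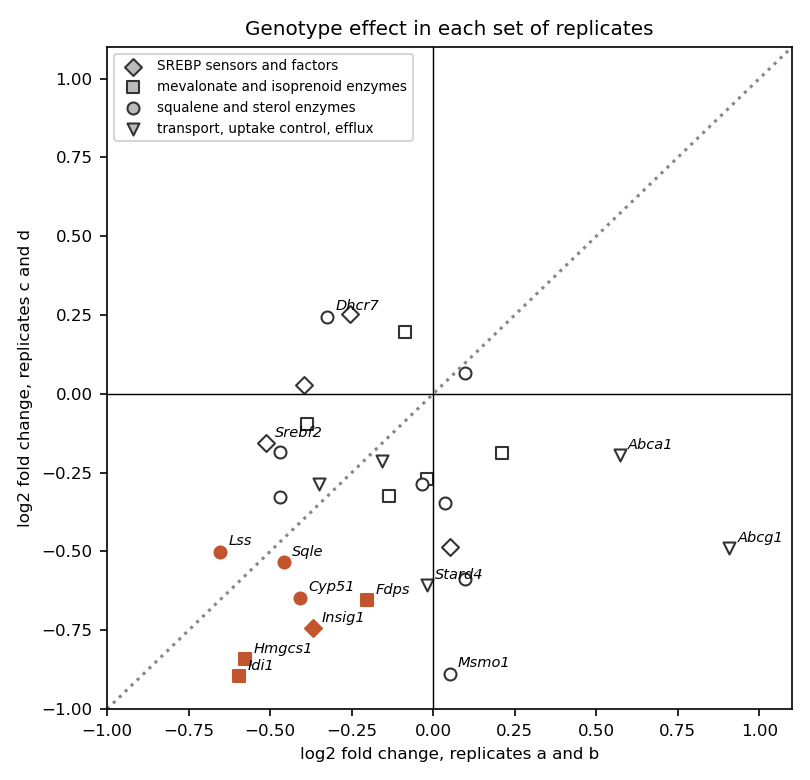
Log2 fold change of each of the 29 genes in set 1 (x axis, replicates a and b) and set 2 (y axis, replicates c and d), with the marker shape giving the role and red fill the 7 genes that fell. The dotted line marks equal effects. The 7 lie in the lower left, below 0 on both axes, Msmo1 below the x axis near 0 in set 1, and Abca1 and Abcg1 above 0 in set 1 only.

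Per kilobase of exon, the levels in control lenses differed widely along the pathway. Hmgcs1 had 57.8 RPKM ± 6.47 and Insig1 56.5 RPKM ± 5.63 (CPM per kilobase of exon, SD, n = 4), which differ by less than their spread, followed by Cyp51 at 38.9 RPKM ± 4.33. At the other end were Mylip (3.24 RPKM ± 0.357), Abca1 (2.64 RPKM ± 0.713) and Abcg1 (2.07 RPKM ± 0.882). Hmgcs1 stood at the 96.2 percentile of all genes tested and Abcg1 at the 40.5 percentile. Ranked per kilobase, the genes that fell were not all at the top. Lss was at 8.22 RPKM ± 1.01, rank 18 of 29, while Fdft1, rank 4 at 30.9 RPKM ± 4.69, did not pass. Lss has the longest exon union of the 29 genes (10787 bases), and its control mean was 88.7 CPM. By CPM the genes that fell were among the more abundant, with control means from 60.4 (Idi1) to 266 CPM (Hmgcs1). Srebf2, Fdft1 and Srebf1 lay within that range and did not pass. No gene of the 29 with a control mean below that of Idi1 passed.

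Of 73 related genes tested in 6 other lists, 6 passed (8.22%), 1 higher and 5 lower, a share near the 10.5% of all genes tested. Of 8 lipoprotein receptor genes only Vldlr, the receptor for very low density lipoprotein, passed (median of the list 0.05). It had 139, 144, 125 and 139 CPM in controls and 94.6, 97.4, 98.1 and 107 CPM in CKO lenses, with no overlap (log2 fold change -0.47, SE 0.09, adjusted p = 0.011). The call ended without control d (adjusted p = 0.0551, with 0.00238 to 0.0551 over the 8 fits), where 3.15% of all genes were called. None of 10 genes for SREBP processing and sterol-regulated degradation passed (median -0.05), and 3 had an unadjusted p under 0.05, a share near the 26.5% of all genes. Mbtps1, the protease gene of the initial SREBP cleavage, had 0.22 (adjusted p = 0.204). Of 14 fatty acid synthesis genes known as SREBP-1 targets, only Scd1, a desaturase gene, fell (-0.59, adjusted p = 0.0495), and the list had a median of -0.03 (-0.28 for set 1 and 0.14 for set 2). Scd1 averaged 7.94 CPM in controls. Its relative Scd2, at 2323 CPM in controls, did not pass (-0.24, adjusted p = 0.333). Fasn, the fatty acid synthase gene, had -0.01 (adjusted p = 0.965).

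Of 14 genes for sterol esterification and intracellular transport, Nceh1, which encodes a cholesterol ester hydrolase, rose from 3.96 to 6.75 CPM on average (log2 fold change 0.76, SE 0.17, adjusted p = 0.0219) and Osbpl9, an oxysterol-binding protein family gene, fell (-0.35, adjusted p = 0.0495), with a list median of 0.07. Of 15 LXR receptors, partners and oxysterol enzymes, 14 were tested and 2 fell (median 0.02). These were Cyp7b1, an oxysterol hydroxylase gene (-0.79, SE 0.19, adjusted p = 0.0281), and the transporter gene Abca7 (-0.50, adjusted p = 0.0451). None of 13 genes for isoprenoid use passed (median -0.06), and 2 of them had an unadjusted p under 0.05, against 26.5% of all genes. The calls for Scd1, Osbpl9, Abca7, Cyp7b1 and Nceh1 each ended without at least 5 of the 8 libraries left out in turn (adjusted p up to 0.145, 0.144, 0.137, 0.0978 and 0.0906). Those 8 fits called between 3.15% and 16.1% of all genes.

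The count of 7 depended on the correction and on single libraries. Among protein-coding genes, after removal of length and GC trends by library, it was 13, Srebf2 among them (log2 fold change -0.44, adjusted p = 0.0062). It was 8 among protein-coding genes with the trends left in. Over all genes of these fits, 17.6% and 12.2% were called, against 10.5% in the main fit. Without CKO d the count was 4, where 4.10% of all genes were called. Without control a and CKO c, the libraries with the most retinal transcript of their genotype, it was 4 too (Hmgcs1, Idi1, Sqle and Cyp51), with 2.85% of all genes called. That fit and the fit of protein-coding genes with the trends left in were tried only once the data had been seen. Hmgcs1, Idi1 and Sqle passed whichever of the 8 libraries was removed, with adjusted p up to 0.0215, 0.0175 and 0.0486.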

How the data were processed

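The tools named, per the submitters' processing notes, are featureCounts, HISAT2 and CASAVA, with build mm10. For versions, annotation and strand setting, the sources used here give nothing. A single table was deposited, of raw read counts per Ensembl gene for 8 libraries, with no normalization. IDs were given symbols and positions from GENCODE M21 (42548 of 43432 matched). Low genes were removed with filterByExpr (minimum count 10 and minimum total 15), and counts were scaled by TMM and tested with edgeR 4.0.16 in R 4.3.3 by the robust quasi-likelihood F-test with set and genotype as terms. Benjamini-Hochberg adjustment ran over 16241 genes, with a threshold of 0.05, and all adjusted p in the text are from this test unless DESeq2 1.42.0 is named. A second fit tested the interaction of genotype and set, and each set was also fitted alone. RPKM used the union of exons as gene length. The code was tested on simulated data.

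The members and lists were chosen with earlier results of these data known. Named genes were all 29 members, with each library's CPM for those past the threshold and for Srebf1, Srebf2, Insig1, Hmgcs1, Sqle, Lss, Dhcr7, Mylip, Abca1 and Abcg1, up to 4 called genes of each other list, and Mettl3. Others (Mbtps1, Fasn, Scd2, C1qc, Lim2, Foxe3, Pax6, Msmo1, Hsd17b7 and Nr1h2 by library) were chosen after their values were seen. Between libraries of a genotype, chi-square per degree of freedom was 15.8 to 113, far above counting noise, so each counted as 1 replicate. No label says that they came from separate animals, so p-values measure the spread between libraries, which may be technical. Replicate letters were checked for pairing. Exons of 10 of the 29 genes, 5 of the 7 called (Sqle and Insig1 excepted), overlap another gene. For 3 of the 10 (Fdps, Tm7sf2 and Srebf1) an overlap is on the same strand, and for the others the strand setting decides whether reads can be told apart. The alternatives were other scalings, DESeq2, no filter, other covariates, length and GC trends removed, and each library left out.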

Additional observations from a re-analysis of the deposited data

Results flagged for a closer look

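Among 58 groups of 4 libraries (29 genes in each genotype), 2 had a library far from the other 3 by Dixon's criterion, and chance flags about 1 in 20. Both were CKO a. Srebf1 stood at 68.3 CPM there, against 80.7 to 82.6 CPM in the other CKO libraries. Cyp51 stood at 126 CPM there, against 114 to 116 CPM, closer to the controls than the others and still below the lowest control.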

How the results depend on the processing

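In 20 alternatives, the 7 genes that fell kept fitted values below 0, and none of the 29 reversed a call. Of 580 values of single genes, 20 lost a call, 17 gained one and 31 values that passed neither way changed sign. The number of the 29 called lower was 7, and 4 with a replicate block, 13 with GC and length trends removed, 4 without control a and CKO c, and 4 to 10 with 1 library left out. It was higher for 0, and for 1 (Abca1) in set 1 alone and 0 to 1 with 1 library left out. Over all genes, 1706 were called, and 665 with the replicate block, 858 in set 2 alone, 462 without control a and CKO c and 503 to 2553 with 1 library left out. Called lower were 651, and 1001 with DESeq2, 160 with the replicate block, 1132 with GC and length trends removed, 161 in set 2 alone, 103 without control a and CKO c and 130 to 1146 with 1 library left out. The fits of 1 set hold fewer libraries, and other causes were not tested. The interaction of genotype and set called no gene, and 918 genes, 2 of the 29, without the filter on low counts, and 0 to 1984 genes, 0 to 6 of the 29, with 1 library left out, most without control d. The median level over the 29 genes in controls was 11.7 RPKM, and 16.6 RPKM with the longest transcript as length and 15.9 RPKM without crystallin counts in the library size, both by construction. Correlations of same-letter deviations from the genotype means were -0.21, 0.12, -0.39 and 0.43 for a to d. Of 8 libraries, 3 correlated best with their own letter. With 4 libraries per genotype and no term for the set, these values cannot settle whether the letters pair the libraries. Under the replicate block the calls for Insig1, Fdps and Cyp51 were lost (adjusted p 0.0542, 0.122 and 0.0529).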
